A study of Mus musculus with 4 samples.

Results

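The genes described are 9 chemokine receptors that guide lymphocytes to the gut, to inflamed tissue or to lymph nodes, *Ccr2*, *Ccr4*, *Ccr6*, *Ccr7*, *Ccr9*, *Cxcr3*, *Cxcr4*, *Cxcr5* and *Cxcr6*. They were taken by symbol from a count table of 25239 genes, in 4 RNA-seq libraries of natural killer T (NKT) cells from the small intestinal lamina propria (SI-LP), the connective tissue under the gut epithelium. *Cxcr6*, *Ccr9*, *Ccr2* and *Cxcr3* made up nearly all of the mRNA of these 9 receptors, a sum that leaves out the rest of the family. *Cxcr4* and *Ccr4* were present at low levels in every library, *Ccr7* was seen in 2 libraries, and *Cxcr5* and *Ccr6* were at or near 0. All 4 libraries belong to 1 condition, so levels, their order within a library and their spread between libraries are what can be compared.

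Chemokine receptors are G protein-coupled receptors in the plasma membrane of leukocytes. A chemokine, a small secreted protein held on endothelium or released in tissue, binds the receptor, and the inhibitory G protein behind it sets off integrin activation and movement of the cell along the chemokine gradient. Which receptors a T cell carries therefore bears on where it enters and stays: CCR9 and its epithelial ligand CCL25 are known for homing to the small intestine, CCR7 and CXCR5 for entry into lymph nodes and B cell follicles, and CXCR3 and CXCR6 for inflamed tissue, liver and mucosa.

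NKT cells, T cells with an αβ receptor for lipids presented by CD1d, were sorted as live cells binding TCR-β antibody and CD1d tetramer loaded with the lipid PBS57 and lacking B220, CD11b, CD11c and CD8. The mice were WT C57BL/6Jax, young adults of both sexes, and had been given a nanobody that blocks the enzyme ARTC2 to spare the cells during isolation. The series describes 2 experiments, and the sample names mark replicates 3 and 4 as first and replicates 1 and 2 as second, which is read here as the experiment. The sample names number the WT samples 1 to 4, but nothing states whether a library holds 1 animal or several, so the p-values below measure only the spread between these samples. The question the study put to this experiment was how NKT cells of the SI-LP differ from those of lymphoid tissues, whose libraries are not analysed here.

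The 4 libraries held between 3882803 and 8732858 counts on genes. The 7 T cell markers (*Cd3d*, *Cd3e*, *Cd3g*, *Cd247*, *Lck*, *Zap70*, *Cd2*) were all present in every library, with sums of 18369, 10345, 15561 and 5174 counts in replicates 1 to 4, and *Cd8a* and *Cd8b1* together had at most 13 counts. The 21 epithelial markers took 0.0973%, 1.28%, 0.0199% and 3.03% of the counts, so replicates 2 and 4 stood apart from replicates 1 and 3, and the 6 plasma cell markers took 0.636% and 0.784% in the second experiment against 0.00235% and 0.025% in the first. Single genes dominated some of these sums. *Lyz1* gave 84299 of the 117785 epithelial counts in replicate 4. *Jchain* gave 44022 of 46029 plasma cell counts in replicate 1 and 66662 of 68493 in replicate 2. From replicate 1 to replicate 2, counts fell only for *Fabp1* (158 to 36) and *Apoa4* (79 to 21) among the epithelial markers. In such bulk samples, fewer cells of a type and less RNA per cell cannot be told apart.

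Most of the mRNA of the 9 receptors came from 4 genes, and 3 of these lie close together on chromosome 9. For these reasons the stretches of 250 bases before the transcription start of the 4 are shown. They are RefSeq promoter sequences of GRCm38.p6, written 5′ to 3′ along the gene, and capitals mark a match to 1 of the 4 motifs searched on both strands. Searched for RUNX factors, which effector and resident T cells use, were the letters TGTGGT. For T-box factors such as T-bet, which directs type 1 T cells, the letters searched were TCACACC. Nuclear receptors, among them those of retinoic acid, were represented by the letters AGGTCA. Zinc finger proteins of the GATA family were represented by the letters AGATAA.
Cxcr6, chr9:123806227-123806476, plus strand: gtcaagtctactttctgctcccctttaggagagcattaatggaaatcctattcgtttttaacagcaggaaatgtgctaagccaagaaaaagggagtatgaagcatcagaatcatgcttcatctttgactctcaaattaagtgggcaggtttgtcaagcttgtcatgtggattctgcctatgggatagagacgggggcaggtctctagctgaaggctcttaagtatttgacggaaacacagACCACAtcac
Ccr9, chr9:123766961-123767210, plus strand: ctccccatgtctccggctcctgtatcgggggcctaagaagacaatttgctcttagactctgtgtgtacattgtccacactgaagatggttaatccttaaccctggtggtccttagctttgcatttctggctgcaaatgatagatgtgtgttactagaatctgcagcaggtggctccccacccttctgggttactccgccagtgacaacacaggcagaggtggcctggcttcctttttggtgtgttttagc
Ccr2, chr9:124101933-124102182, plus strand: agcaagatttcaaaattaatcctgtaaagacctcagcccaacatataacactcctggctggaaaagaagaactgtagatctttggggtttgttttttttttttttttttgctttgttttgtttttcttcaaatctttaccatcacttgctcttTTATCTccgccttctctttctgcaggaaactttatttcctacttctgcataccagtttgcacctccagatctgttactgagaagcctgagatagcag
Cxcr3, chrX:101734148-101734397, minus strand: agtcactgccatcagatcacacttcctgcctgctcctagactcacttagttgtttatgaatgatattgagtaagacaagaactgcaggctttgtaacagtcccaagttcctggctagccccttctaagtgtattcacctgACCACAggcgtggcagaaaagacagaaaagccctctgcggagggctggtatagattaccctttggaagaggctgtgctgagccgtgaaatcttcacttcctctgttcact

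The RUNX letters, here read on the opposite strand as ACCACA, begin 10 bases before the start of *Cxcr6* and 110 bases before that of *Cxcr3*, and 14.0% of the 32851 promoters in the table hold them somewhere in such a stretch. The GATA letters, on the opposite strand, begin 97 bases before the start of *Ccr2*, and 9.99% of all promoters hold them. No motif searched was found before *Ccr9*, and the T-box letters, held by 3.33% of all promoters, were in none of the 8 promoters listed for 7 of the 9 receptors. In the promoters not shown, *Ccr6* held the nuclear receptor letters (14.0% of all promoters) and the GATA letters, and *Cxcr4* and *Ccr4* held none. A match is a run of letters and not a measured site.

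Levels of different genes are compared in TPM, counts divided by the gene length in the table and scaled to a fixed sum within each library, and levels of 1 gene in different libraries in CPM, counts scaled to library size with TMM factors (trimmed mean of M values), which limit the weight of a few abundant genes. *Cxcr6* was the highest of the 9 in TPM. Its ligand CXCL16 is bound to membranes of macrophages and epithelium and shed from them, and CXCR6 is a hallmark of tissue-resident T cells and of NKT cells in the liver. It had 4269, 1957, 3435 and 1538 counts in replicates 1 to 4, which is 938.5, 304.6, 996.2 and 504.6 TPM and a mean of 686.0 ± 335.8 TPM (SD, n = 4). Replicates 1 and 3 were high and replicates 2 and 4 low, and libraries of both experiments were found on each side. Its mean placed it at percentile 98.4 of the 11689 genes tested, rank 183. The gene (chr9:123806477-123811754, plus strand, GRCm38) lies within the span of *Fyco1* on the opposite strand, but no exonic base is shared.

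*Ccr9*, the receptor for the epithelial chemokine CCL25 and the best known gut-homing receptor, had more counts than *Cxcr6* in 3 of the 4 libraries, at 7481, 3131, 3478 and 1269. Its gene length in the table is 4392 bases against 1893 for *Cxcr6*, and per length it came second, with 708.9, 210.1, 434.8 and 179.5 TPM and a mean of 383.3 ± 245.1 TPM (percentile 97.0). Replicate 1 was the highest library for *Ccr9*, whereas replicate 3 was the highest for *Cxcr6*. The gene lies at chr9:123767211-123783457 on the plus strand.

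*Ccr2*, the receptor for CCL2 and related monocyte chemoattractants, is carried by inflammatory monocytes and by effector T cells. It had 1967, 1603, 1821 and 619 counts, or 228.1, 131.6, 278.6 and 107.1 TPM, with a mean of 186.3 ± 80.7 TPM (percentile 93.5). Of the 15 myeloid markers examined, 2 (*Flt3* and *Clec9a*) had 0 counts in every library and 6 had over 3 counts in all 4. The 6 were *Lyz2* (259, 215, 39 and 209 counts), *Ly6c2* (307, 221, 38 and 17), *Csf1r*, *Itgam*, *Cd68* and *Itgax*. The list summed to 926, 1054, 264 and 740 counts, and the part of myeloid cells in the *Ccr2* counts was not tested. The gene (chr9:124102183-124109140, plus strand) belongs to a family with closely similar coding sequences, and how reads common to several members were assigned is uncertain.

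*Cxcr3*, the receptor for the interferon-induced chemokines CXCL9, CXCL10 and CXCL11, is a target of T-bet in type 1 T cells. It had 547, 208, 581 and 212 counts, or 141.5, 38.1, 198.2 and 81.8 TPM, with a mean of 114.9 ± 69.9 TPM (percentile 88.4). As with *Cxcr6*, the highest library was replicate 3 and the lowest replicate 2. It lies at chrX:101731535-101734147 on the minus strand.

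*Cxcr4* and *Ccr4* formed a lower tier. *Cxcr4*, the receptor for CXCL12, which retains cells in bone marrow and is widespread on lymphocytes and plasma cells, had 297, 81, 159 and 18 counts, or 68.1, 13.2, 48.1 and 6.16 TPM (mean 33.9 ± 29.3 TPM, percentile 61.3). The plasma cell markers summed to 46029, 68493, 129 and 971 counts in the same libraries, and the part of plasma cells in the *Cxcr4* counts was not tested. *Ccr4*, the receptor for CCL17 and CCL22 on skin-homing and type 2 T cells, had 150, 80, 291 and 61 counts, or 22.4, 8.46, 57.3 and 13.6 TPM (mean 25.4 ± 22.0 TPM, percentile 52.8). *Cxcr4* was higher than *Ccr4* in replicates 1 and 2 and lower in replicates 3 and 4. *Cxcr4* lies at chr1:128588199-128592299 and *Ccr4* at chr9:114490316-114496544, both on the minus strand.

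*Ccr7* and *Cxcr5*, the receptors for lymphoid tissue, were low or not detected, as was *Ccr6*. *Ccr7*, which brings T cells and dendritic cells into lymph nodes along CCL19 and CCL21, had 0, 93, 46 and 0 counts, or 0, 13.9, 12.8 and 0 TPM (mean 6.67 ± 7.71 TPM, percentile 19.0). It was present in 1 library of each experiment, and a count of 0 allows up to 0.418 CPM in replicate 1 and 0.757 CPM in replicate 4 (3 counts), against 8.95 CPM in replicate 2 and 10.3 CPM in replicate 3. *Cxcr5*, which brings B cells and follicular helper T cells into follicles along CXCL13, had 15, 1, 0 and 0 counts, a mean of 0.620 ± 1.17 TPM. *Ccr6*, the receptor for CCL20 on B cells, type 17 T cells and NKT17 cells, had 1 count in replicate 2 and 0 in the other libraries. Both failed the filter on low counts, so 7 of the 9 receptors were tested and ranked.

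**Figure D1:**
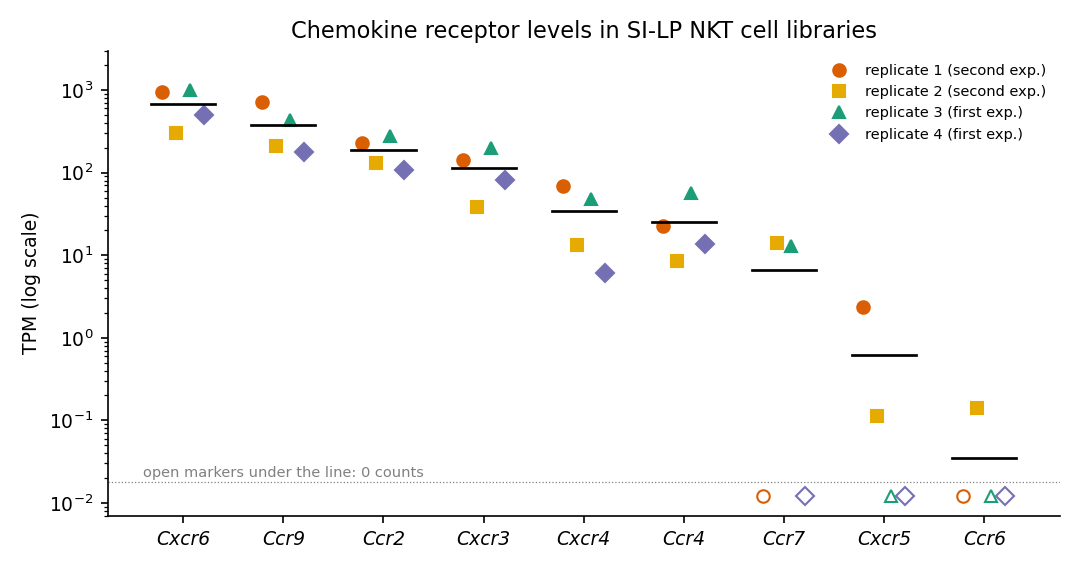
TPM of each of the 9 receptors (log axis) in the 4 SI-LP NKT cell libraries; a point is a library, a black line the mean of the 4, and an open marker under the dotted line a library with 0 counts. *Cxcr6* has the highest mean, at 686.0 TPM, and the means of *Ccr7*, *Cxcr5* and *Ccr6* lie below 10 TPM, with open markers in 2, 2 and 3 libraries.

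B cell markers bear on the few counts of *Cxcr5* and *Ccr6*, since B cells carry both receptors. Of the 10 B cell markers, 1 had 0 counts in every library and *Ms4a1* and *Pax5* had at most 2, while *Cd79a*, which plasma cells also express, had 269, 288, 0 and 0 counts. The list summed to 479, 644, 11 and 80 counts in replicates 1 to 4. *Cxcr5* had 15 counts in replicate 1 and 1 in replicate 2, whereas the B cell sum was higher in replicate 2 than in replicate 1. The part of B cells or plasma cells in the counts of *Cxcr5* and *Ccr6* was not tested.

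The order of the receptors within a library was compared pair by pair, as the mean difference in log2(TPM + 1) over the 4 libraries with a two-sided exact permutation test of sign flips. In 30 of the 36 pairs the order was the same in every library, at an exact permutation p of 0.125, the smallest value that 4 libraries allow (0.15 after Benjamini-Hochberg adjustment over the 36 pairs), so no pair could pass a threshold of 0.05. *Cxcr6* exceeded *Ccr9* in 4 of 4 libraries, by 0.90 ± 0.52 (SD) on the log2 scale, *Ccr9* exceeded *Ccr2* by 0.92 ± 0.48 and *Ccr2* exceeded *Cxcr3* by 0.83 ± 0.63, each in 4 of 4. The step from *Cxcr3* down to *Cxcr4* was larger, at 2.02 ± 1.09 in 4 of 4 libraries. Below it, no neighbours kept 1 order in every library: *Cxcr4* over *Ccr4* was 0.22 ± 1.11 (2 of 4 libraries, exact p = 0.75), *Ccr4* over *Ccr7* 2.46 ± 2.32 (3 of 4, exact p = 0.25), *Ccr7* over *Cxcr5* 1.44 ± 2.77 (2 of 4, exact p = 0.5) and *Cxcr5* over *Ccr6* 0.43 ± 0.88 (1 of 4, exact p = 1). The order of *Cxcr6* and *Ccr9* rests on the length correction: in CPM the mean difference was -0.31, with *Ccr9* higher.

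As a share of the summed TPM of the 9 receptors, *Cxcr6* took 44.5%, 42.3%, 49.2% and 56.5% in replicates 1 to 4, a mean of 48.1% ± 6.29 (SD, n = 4). *Ccr9* took 33.6%, 29.2%, 21.5% and 20.1% (26.1% ± 6.41), *Ccr2* 10.8%, 18.3%, 13.7% and 12.0% (13.7% ± 3.28) and *Cxcr3* 6.71%, 5.29%, 9.78% and 9.17% (7.74% ± 2.10). The 4 together made up between 94.2% and 97.8% in every library, although their summed level differed several-fold. The shares of *Ccr9* were higher in both libraries of the second experiment than in either of the first, and those of *Cxcr6* and *Cxcr3* lower. With 2 libraries an experiment, an exact permutation test of these separations could not reach a p under 0.05, and they were not tested. Plasma cell marker sums were also higher in both libraries of the second experiment. The 6 plasmacytoid dendritic cell markers summed to 1471 and 2441 counts there, against 32 and 408 in the first. Among them, *Siglech* had 0 counts in every library and *Spib* at most 11. The part of either cell type in the *Ccr9* counts was not tested.

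**Figure D2:**
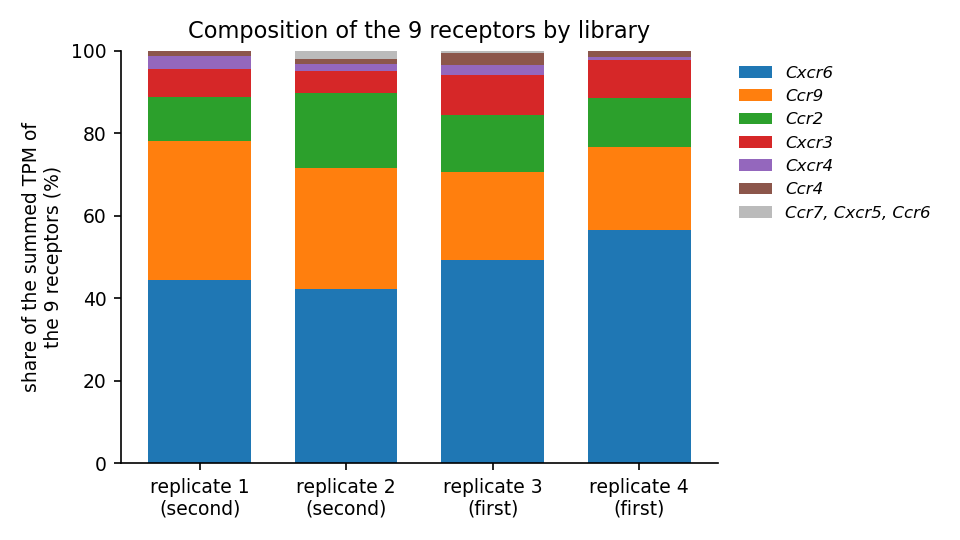
Share of the summed TPM of the 9 receptors (%) in each library, stacked from *Cxcr6* at the base, with the 3 least abundant receptors in grey. *Cxcr6* runs from 42.3% to 56.5% and the *Ccr9* band is wider in replicates 1 and 2 than in replicates 3 and 4.

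Of the 9 receptors, 5 lie on chromosome 9, and *Ccr9*, *Cxcr6* and *Ccr2* lie within 341.93 kb that the table fills with 8 genes. Levels differed between neighbours there. *Fyco1*, a vesicle transport gene that lies beside *Ccr9* and around *Cxcr6*, was at 26.9 ± 14.3 TPM, and *Xcr1*, *Ccr1*, *Ccr1l1* and *Ccr3* between *Cxcr6* and *Ccr2* were at 3.92, 0.439, 0 and 0 TPM.

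**Figure D3:**
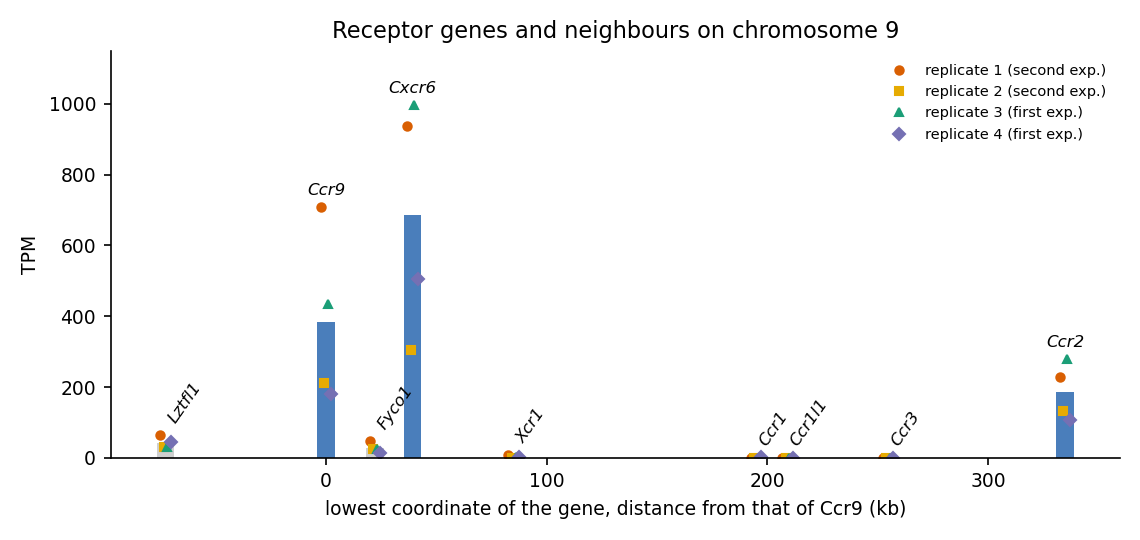
Mean TPM (bars; receptors described here in blue, other genes in grey) and single libraries (points) of the genes around *Ccr9*, placed by the distance of their lowest coordinate from that of *Ccr9* in kb. *Ccr9*, *Cxcr6* and *Ccr2* rise above the other genes drawn, which lie at 42.7 TPM (*Lztfl1*) or lower. Genes beyond *Ccr2* are not drawn, so the contrast does not cover all neighbours.

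Among all 24 genes listed as the chemokine receptor family, which includes scavenging receptors, 12 passed the filter and 8 had over 3 counts in all 4 libraries. They included the 6 upper receptors above and *Ccrl2*, a non-signalling receptor that binds chemerin (98.7 ± 37.6 TPM). By mean TPM *Ccrl2* lay between *Cxcr3* and *Cxcr4*. The family held 4 genes with 0 counts in every library (*Ccr1l1*, *Ccr3*, *Cxcr1* and *Ackr2*). *Ccr10*, a receptor of plasma cells for epithelial chemokines, had 23 and 101 counts in the second experiment and 0 in the first, as the plasma cell markers were higher in the second; their part in it was not tested.

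The levels of the 6 receptors with at least 10 counts in every library varied widely between libraries in CPM. *Cxcr6* was at 594.5, 188.4, 770.7 and 387.9 CPM in replicates 1 to 4, and *Ccr9* at 1042, 301.4, 780.4 and 320.0 CPM. *Cxcr4* spread most, from 4.54 to 41.4 CPM. The highest library exceeded the lowest 2.65 times for *Ccr2*, 3.46 times for *Ccr9*, 4.09 times for *Cxcr6*, 6.51 times for *Cxcr3*, 8.48 times for *Ccr4* and 9.11 times for *Cxcr4*. Exact Poisson 95% intervals, which cover counting error only, ran from 290.9 to 312.1 CPM for *Ccr9* in replicate 2 and from 2.69 to 7.17 CPM for *Cxcr4* in replicate 4, so counting error was small beside this spread for the abundant receptors.

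Set against the T cell marker counts of the same library, the receptors were far more even. *Cxcr6* stood at 23.2, 18.9, 22.1 and 29.7 counts per 100 T cell marker counts (23.5 ± 4.54, SD, n = 4), *Ccr9* at 40.7, 30.3, 22.4 and 24.5 (29.5 ± 8.21) and *Ccr2* at 10.7, 15.5, 11.7 and 12.0 (12.5 ± 2.09). On this scale the highest library exceeded the lowest 1.45 times for *Ccr2*, 1.57 times for *Cxcr6* and 1.82 times for *Ccr9*. *Cxcr3* (2.98, 2.01, 3.73 and 4.10) differed 2.04 times, *Ccr4* 2.42 times and *Cxcr4* (1.62, 0.783, 1.02 and 0.348) still 4.65 times. The median ratio of the 6 receptors dropped from 5.30 in CPM to 1.93, and the ratio narrowed for 6 of 6. Over all 8089 genes with at least 10 counts in every library, the median ratio widened from 3.26 to 4.79 and narrowed for 2238 genes (27.7%). *Cd3e* alone gave between 60.0% and 72.1% of the T cell marker counts; without it the median ratio of the receptors was 2.28, again narrower for 6 of 6, and leaving out any 1 library also kept 6 of 6.

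**Figure D4:**
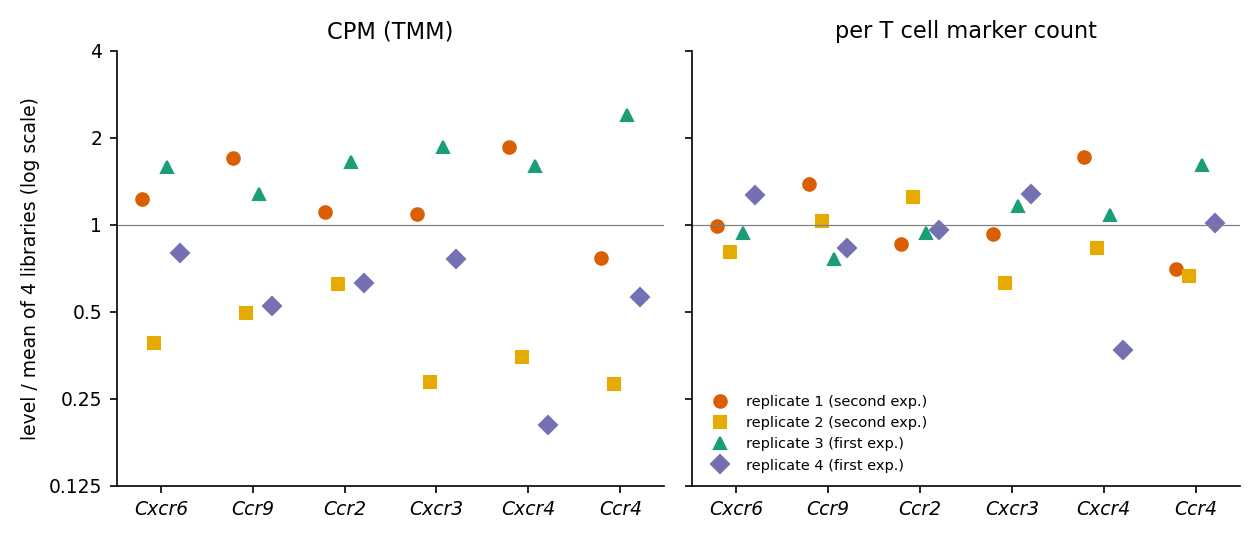
Level of the 6 receptors in each library divided by the mean of the 4 libraries (log axis), as TMM-scaled CPM on the left and per T cell marker count on the right. The points of *Cxcr6*, *Ccr9* and *Ccr2* draw together on the right, while those of *Cxcr4* remain 4.65 times apart.

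Within each experiment, the library with more epithelial counts (replicate 2 in the second, replicate 4 in the first) was compared with its partner as a difference in log2 CPM, 1 library against 1, with no test. *Cxcr6* was lower by 1.66 in replicate 2 than in replicate 1 and by 0.99 in replicate 4 than in replicate 3, and *Ccr9* by 1.79 and 1.29. *Cxcr4* differed most, with values of -2.41 and -2.97. All 6 receptors were lower in both comparisons, as were 7 of 7 T cell markers, against 3031 of the 8089 genes (37.5%). The median of the receptors was -1.72 and -1.34 and that of the T cell markers -1.04 and -1.48, where the median of all genes was -0.13 and -0.18. Per T cell marker count, the differences of *Cxcr6* were -0.30 and 0.43, those of *Ccr9* -0.43 and 0.13 and those of *Ccr2* 0.53 and 0.03, while *Cxcr4* was lower in both, at -1.05 and -1.55. All 21 epithelial markers passed the filter, 18 with over 3 counts in all 4 libraries, and summed to 7035, 111487, 1094 and 117785 counts; their part in the receptors' differences was not tested.

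**Figure D5:**
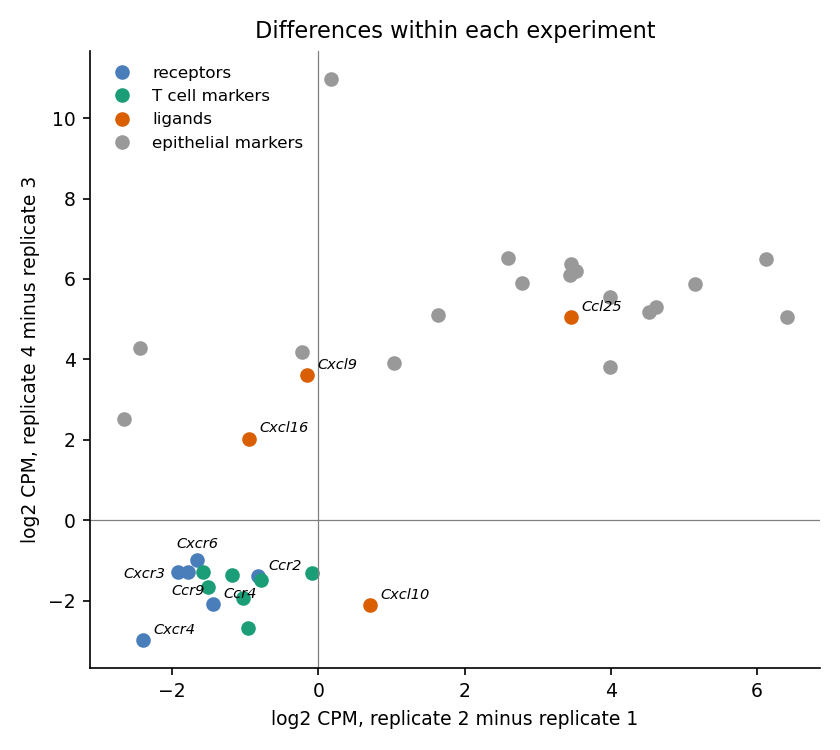
Difference in log2 CPM within the second experiment (horizontal axis) and within the first (vertical axis), 1 point a gene, for the 6 receptors, the 7 T cell markers and those ligands and epithelial markers with over 3 counts in all 4 libraries. The receptors and the T cell markers lie below and to the left of 0, and *Ccl25* lies with most epithelial markers in the upper right.

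Between the experiments (second minus first, quasi-likelihood test of edgeR, p-values adjusted after Benjamini and Hochberg), 0 of the 7 receptors tested was called, as was 0 of all 11689 genes (0%). At an unadjusted p under 0.05 there were 0 receptors and 248 genes (2.12%); DESeq2 called 41 genes and no receptor. The log2 fold changes, given with their standard errors, were *Ccr9* 0.29 ± 0.83 (SE), *Cxcr4* 0.29 ± 1.39, *Ccr2* -0.40 ± 0.69, *Cxcr6* -0.57 ± 0.77, *Cxcr3* -0.93 ± 0.89 and *Ccr4* -1.50 ± 1.14, each with an adjusted edgeR p of 0.9997. *Ccr7*, absent from 1 library of each experiment, had an SE of 2.88. The biological coefficient of variation over all genes was 0.976, and with such a spread between replicates a difference of the size seen for *Ccr4* was not detectable.

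Ligands of the 9 receptors are mostly products of epithelium, stroma and myeloid cells. Of 17 listed, 5 passed the filter and 7 had 0 counts in every library, among them *Ccl19*, *Ccl21a* and *Ccl21b*, the ligands of CCR7, and *Ccl2* and *Ccl7*, ligands of CCR2. *Ccl25*, the ligand of CCR9, had 146, 2329, 31 and 917 counts, so the 2 libraries with more epithelial counts also held more *Ccl25*; the part of epithelial cells in it was not tested. *Cxcl10*, a ligand of CXCR3, had 303, 713, 136 and 28 counts, and *Cxcl16*, the ligand of CXCR6, 147, 110, 8 and 29. No ligand was called between the experiments, and none had an unadjusted p under 0.05.

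Most listed genes of receptor signalling were well expressed, a list that also holds genes that dampen the signal, such as *Rgs1* and *Rgs2*. Of 27 signalling genes listed, 26 are in the table and 24 passed the filter. The median percentile of these 24 was 85.2 among all genes tested. The highest were *Rap1b*, a small GTPase that activates integrins (549.6 ± 269.9 TPM), *Rac2*, a GTPase of actin assembly in leukocytes (495.6 ± 233.6 TPM), and *Gnai2*, the inhibitory G protein subunit (431.9 ± 217.7 TPM). The lowest were *Rasgrp2*, an activator of RAP1 (12.6 ± 20.1 TPM), *Rgs16* (0.992 ± 1.43 TPM) and *Rgs18* (0 counts). None was called between the experiments.

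Of 18 other genes of migration and homing, 14 passed the filter, with a median percentile of 76.9. The highest were *Selplg*, the selectin ligand PSGL-1 (331.6 ± 224.1 TPM), *Cd44*, a receptor for hyaluronan (316.4 ± 171.4 TPM), and *Itgb2*, the β chain of LFA-1 (306.9 ± 199.3 TPM). *Cd69*, which holds lymphocytes in tissue, was at 170.6 ± 104.2 TPM, whereas *Itgae*, an integrin gene of the same list, had 11, 40, 0 and 6 counts. *S1pr1*, the receptor for egress from tissue, had 15, 3, 9 and 0 counts, beside 0, 93, 46 and 0 for *Ccr7*. *Gpr15*, the receptor for homing to the colon, and *S1pr5* had 0 counts in every library.

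Of 12 genes known to regulate members of the receptor family, 11 passed the filter. *Runx3*, a RUNX factor of effector and resident T cells (173.6 ± 144.5 TPM), *Tbx21*, which encodes T-bet (162.9 ± 121.7 TPM), and *Foxo1*, an activator of *Ccr7* (142.5 ± 86.8 TPM), were highest. *Klf2*, an activator of *S1pr1*, was at 4.48 ± 3.78 TPM, and *Eomes* had 0 counts. None of the homing genes or regulators was called, and 2 and 1 of them had an unadjusted p under 0.05, against 2.12% of all genes.

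The genes most like each receptor across the 4 libraries were named by the smallest root mean square difference of log2 CPM, each gene centred on its own mean. *Cxcr6* lay closest to *Slc28a2*, a nucleoside transporter (0.026), and *Pxk* (0.035), where the median over 11688 genes was 1.13. *Ccr9* lay closest to *Sugp1* (0.047) and *Qk* (0.055), *Ccr2* to *Ctcf* (0.033) and *Wtap* (0.052), and *Cxcr3* to *Gm16364* (0.070) and *Myo1g* (0.091). *Cxcr4* lay closest to *H2-Q4* (0.041) and *Mx1*, an interferon-induced gene (0.076), and *Ccr4* to *Adgrl1* (0.067) and *Abhd8* (0.077). Among the receptors themselves, *Cxcr6* and *Cxcr3* were the most alike pair, at 0.231, a distance at which *Cxcr3* was the 158th gene from *Cxcr6*. With 4 libraries and 11688 genes, such small distances are a description of these libraries.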

How the data were processed

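NKT cells of the SI-LP were profiled by RNA-seq in 4 libraries of 1 condition, grouped by their sample names. The authors deposited raw counts per gene. Per the file headers they counted primary alignments of read pairs on exons with featureCounts 1.6.4, with no strand option; the methods name HISAT2 and GRCm39, whereas the labels name GRCm38.p6 and the deposited coordinates are those of GRCm38, used here. The labels name a kit for low RNA input and a HiSeq. Since strand was not used, reads from overlapping genes cannot be assigned with certainty (*Cxcr5* and *Bcl9l* share 120 exonic bases). The table's 2 library columns that match no label were not used.

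TPM was computed from the deposited gene lengths and CPM with TMM factors. The 11689 genes that reached 10 counts in 2 or more libraries were compared between experiments with edgeR, called at an adjusted p under 0.05. With 3 counts as the floor, the smallest level a library can show was 0.289 to 0.757 CPM. Floors and intervals cover counting error only, since PCR reads without molecular identifiers are not independent molecules. No library pair agreed within sampling noise (chi-square per degree of freedom of at least 103.8). The test was tested on simulated data.

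The receptors, the gene lists and the motifs were chosen with earlier results of these data known. Named genes were the 9 receptors, family members with over 3 counts in all 4 libraries, the 3 highest and 3 lowest of each list by mean TPM, and for each receptor its 2 closest genes; other genes named, and the promoters shown, were chosen after values were seen. Values of a few listed genes are not reported here. Alternatives were DESeq2, other size factors, other filters, scaling to T cell markers, CPM in place of TPM, shares over the whole family, and leaving out each library; other sets of T cell markers were added after seeing the data. One symbol listed (*Adrbk1*) is an older name of *Grk2*. Computation used Python 3.11.15 (numpy 2.4.6, scipy 1.17.1, pandas 2.3.3, matplotlib 3.10.9) and R 4.3.3, in which DESeq2 1.42.0, limma 3.58.1 and edgeR 4.0.16 were run.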

Additional observations from a re-analysis of the deposited data

Results flagged for a closer look

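Each of the 9 receptors was examined in 3 measures for a library far from the other 3 by Dixon's gap ratio, and 6 of the 27 values passed its critical value at the 95% level, which chance passes in about 1 in 20 groups. The 3 measures rescale the same counts, so the 27 values are not independent and their number says nothing beyond the single genes. All 6 belong to the 2 receptors that failed the filter on low counts. *Ccr6* had 1 count in replicate 2 and 0 elsewhere, which by construction gives a gap ratio of 1 in CPM, per 100 T cell marker counts and as a share of the summed TPM. *Cxcr5* had 15 counts in replicate 1 and at most 1 elsewhere, with gap ratios of 0.954 in CPM, 0.882 per 100 T cell marker counts and 0.862 as a share. None of the 7 receptors that passed the filter had such a library.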

How the results depend on the processing

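With 2 libraries an experiment, the spread between replicates limits the comparisons, and *Cxcr5* and *Ccr6* had too few counts to pass the filter. Genes called between experiments numbered 0 with edgeR, 41 with DESeq2, 60 with no filter on low counts and 0 to 7 on leaving out a library (7 without replicate 3, 6 without replicate 4), with 0 receptors among them in each. The fold change of *Ccr2* turned to 0.15 when scaled to T cell markers, and that of *Ccr7* to 0.34 with library size alone and 1.57 when scaled to T cell markers. On leaving out a library in turn, where a lone library is assumed to vary like the others, fold changes ran from -0.93 to 0.44 for *Ccr2*, -1.16 to 0.84 for *Ccr7*, -0.83 to 1.06 for *Ccr9*, -1.32 to 2.42 for *Cxcr4*, -1.58 to 0.037 for *Cxcr6*, -2.34 to -0.12 for *Ccr4* and -2.16 to -0.17 for *Cxcr3*. In CPM the order turned for *Cxcr6* and *Ccr9* (-0.31) and for *Cxcr4* and *Ccr4* (-0.36), since length no longer enters. On leaving out a library, *Cxcr4* over *Ccr4* ran from -0.23 to 0.63 and *Cxcr5* over *Ccr6* from -0.013 to 0.58. The share of *Cxcr6* was 33.2% in CPM and 36.96% over the whole family, and that of *Ccr9* 41.0% in CPM. Scaled to T cell markers, differences within an experiment turned for *Cxcr6* (0.43, replicate 4 against 3), *Ccr9* (0.13), *Cxcr3* (0.13) and *Ccr2* (0.032, and 0.53 for replicate 2 against 1). Mean CPM stayed within 1 SD in the 63 alternatives run, but this SD is wide for the low receptors: without replicate 3 the mean dropped from 27.3 to 14.7 for *Ccr4* and from 4.82 to 2.98 for *Ccr7*, without replicate 1 from 0.546 to 0.0321 for *Cxcr5*, and without replicate 2 from 0.0241 to 0 for *Ccr6*. The ratio of highest to lowest library of the 6 receptors narrowed per T cell marker count in each of the 7 alternatives run. No paired analysis was possible because a single condition was measured, with each replicate number used once.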
